A study of Mus musculus with 6 samples.

Results

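Exonic peaks are stretches of open chromatin that the authors' annotation placed in an exon of a transcript, outside promoters and untranslated regions. They were taken from the deposited peak table as every distinct peak whose annotation names an exon, and numbered 5123 of 92864 annotated peaks (5.52%). The annotation text also gives the exon's number, which split them into 1636 peaks in exon 1 and 3487 peaks in exon 2 or later.

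In ATAC-seq the Tn5 transposase cuts DNA that nucleosomes leave free and inserts sequencing adapters there, so that read number reports accessibility. Most open sites of a macrophage are promoters, which are open in many cell types, or enhancers in introns and between genes, which differ more between cell types. Exons are mostly wrapped in nucleosomes, but an exon can hold an enhancer or the start of another transcript. In the default order of the annotation tool ChIPseeker, a peak counts as exonic only after the promoter and untranslated classes have been tried.

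Wild-type (WT) mice carried orthotopic brain tumours of SB28, a mouse glioma line, and the cells were sorted from these tumours. Bone marrow derived macrophages (BMDM), which enter the tumour from the blood, were sorted as F4/80+ CD11b+ CD45+ cells with low or absent LY6C, no LY6G and high CD49d. Microglia (MG), which are macrophages that live in the brain from early life, were sorted as F4/80+ CD11b+ cells with low CD45, low or absent LY6C, no LY6G and low or absent CD49d. Each group had 3 libraries, and both groups came from the same kind of tumour, so that neither is a tumour-free control. The labels do not say whether the libraries came from separate animals, so each p-value sets a difference against the spread of these libraries alone, and that spread may be technical.

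No sequence of the exonic peaks themselves was used here, but 256 of them overlapped 1 or more of the RefSeq promoter windows (build GRCm38.p6, the assembly also called mm10), which run from 250 bases before to 50 bases after a gene's start. Of the 270 genes with such a window 257 were long noncoding RNAs (lncRNAs) and 13 were protein coding. A few windows are printed because their peaks carry the differences between BMDM and MG described further on: the first 3 lie in peaks that were more open in MG and the last 3 in peaks that were more open in BMDM. They were chosen after the values were seen. Capitals mark matches, on either strand, to AP-1 (TGANTCA), PU.1 (GAGGAAG), the GC box (GGGCGG), the CCAAT box (CCAAT), the TATA box (TATAAA) and the cAMP response element (TGACGTCA). None of these motifs contains another, but matches to the GC box overlap one another in Gm14636. Gm38516 lies at chr15:56765151-56765450 on the + strand, in the peak nearest to Has2, and holds no match. LOC105244755 lies at chr5:64714603-64714902 on the - strand, in the peak nearest to Klf3, and holds 1 GC box. Gm26744 lies at chr16:21845816-21846115 on the - strand, in a peak nearest to Map3k13, and holds 1 cAMP response element and 3 CCAAT boxes. Gm36199 lies at chr17:29434568-29434867 on the + strand, in a peak nearest to Pim1, and holds 1 AP-1 match. Gm14636 lies at chrX:19237801-19238100 on the - strand, in a peak nearest to Mir222, and holds 7 GC boxes. The gene 4833407H14Rik has its window at chr19:53460372-53460671 on the + strand, in a peak nearest to Mirt1, with 2 PU.1 matches and 1 CCAAT box.
Gm38516: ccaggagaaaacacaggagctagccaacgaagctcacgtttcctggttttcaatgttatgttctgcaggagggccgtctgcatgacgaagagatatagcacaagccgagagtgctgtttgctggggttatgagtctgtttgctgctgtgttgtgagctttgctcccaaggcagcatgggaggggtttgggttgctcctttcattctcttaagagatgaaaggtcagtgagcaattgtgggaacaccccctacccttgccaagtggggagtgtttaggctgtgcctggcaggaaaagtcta
LOC105244755: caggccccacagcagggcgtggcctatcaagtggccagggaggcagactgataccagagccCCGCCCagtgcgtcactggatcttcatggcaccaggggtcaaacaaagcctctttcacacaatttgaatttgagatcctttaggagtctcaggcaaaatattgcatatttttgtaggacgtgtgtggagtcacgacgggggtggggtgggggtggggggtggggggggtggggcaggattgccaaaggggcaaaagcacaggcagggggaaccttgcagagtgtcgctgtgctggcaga
Gm26744: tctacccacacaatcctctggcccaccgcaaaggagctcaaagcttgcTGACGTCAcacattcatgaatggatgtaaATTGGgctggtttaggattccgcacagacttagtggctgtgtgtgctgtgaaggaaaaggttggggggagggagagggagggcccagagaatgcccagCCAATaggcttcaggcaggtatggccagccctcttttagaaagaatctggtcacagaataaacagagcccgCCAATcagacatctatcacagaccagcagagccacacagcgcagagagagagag
Gm36199: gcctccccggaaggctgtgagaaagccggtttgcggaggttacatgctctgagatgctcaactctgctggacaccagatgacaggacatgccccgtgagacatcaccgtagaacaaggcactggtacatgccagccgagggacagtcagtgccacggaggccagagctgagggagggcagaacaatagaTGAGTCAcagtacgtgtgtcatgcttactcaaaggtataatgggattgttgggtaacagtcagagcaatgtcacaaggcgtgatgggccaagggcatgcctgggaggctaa
Gm14636: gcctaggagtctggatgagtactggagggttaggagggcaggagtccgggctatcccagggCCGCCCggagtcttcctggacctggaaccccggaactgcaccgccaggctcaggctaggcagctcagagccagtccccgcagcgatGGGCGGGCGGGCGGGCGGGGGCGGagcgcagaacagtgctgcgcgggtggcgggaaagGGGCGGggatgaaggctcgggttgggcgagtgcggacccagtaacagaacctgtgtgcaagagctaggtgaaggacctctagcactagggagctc
4833407H14Rik: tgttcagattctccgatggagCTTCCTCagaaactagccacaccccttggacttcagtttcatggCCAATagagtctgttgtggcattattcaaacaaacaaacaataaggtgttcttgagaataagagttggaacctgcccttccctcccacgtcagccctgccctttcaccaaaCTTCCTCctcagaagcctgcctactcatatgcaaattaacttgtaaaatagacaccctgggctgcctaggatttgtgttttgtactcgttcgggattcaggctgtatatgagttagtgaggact

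Over the 324 windows on exonic peaks the AP-1 motif was found in 14.8% of windows, against 5.05% of the 14231 windows on promoter peaks within 1 kb and 7.81% of all 32851 windows. The PU.1 motif, the site of a master factor of macrophages, was found in 24.4% of the windows on exonic peaks, 13.8% of those on promoter peaks and 13.6% of all windows. The GC box was found in 21.9% of the windows on exonic peaks, 64.8% of those on promoter peaks and 35.7% of all windows. CCAAT boxes were found in 34.6%, 36.9% and 37.4% of the same 3 sets, TATA boxes in 12%, 6.28% and 13.6%, and cAMP response elements in 1.23%, 3.1% and 1.79%. The median ratio of observed to expected CpG was 0.328 on exonic peaks, 0.76 on promoter peaks and 0.384 over all windows. The AP-1 share was 16.5% over the 273 windows on first-exon peaks and 5.88% over the 51 windows on later-exon peaks, while the PU.1 shares were 24.5% and 23.5%. A match is a stretch of letters and was not taken as a bound site. The 324 windows belong to 270 genes, so a gene can count more than once. Motifs were not counted over windows on intron or intergenic peaks, so the shares are not shown to be particular to exonic peaks.

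BMDM 3 had the fewest whole reads in peaks, 4910448, and MG 2 the most, 23601865, and the median exonic peak held between 18 reads in BMDM 1 and 89 in MG 2. Levels below are normalized counts, which are reads divided by each library's size factor. Over exonic peaks, log2 levels correlated at 0.865 to 0.912 within BMDM, at 0.63 to 0.902 within MG and at 0.562 to 0.809 between the groups. For MG 1 the coefficient was 0.63 against MG 2, 0.838 against MG 3 and 0.779 to 0.809 against the BMDM libraries. Summed over all peaks near 8 microglial markers, counts were 4654 to 5632 in BMDM and 7494 to 11572 in MG, and over 8 monocyte and macrophage markers they were 3752 to 6586 in BMDM and 2417 to 2818 in MG, with no peak at Chil3. The sum over 8 neural and glial markers, all of which had peaks, was 3980 to 5078 in BMDM, against 5043 in MG 1, 10194 in MG 2 and 6617 in MG 3. Neutrophil, lymphoid and endothelial marker sums overlapped between the groups, with no peak at Elane and Cd3g and no other marker at 0 in any library. In such sorted pools, fewer cells with an open site and a less open site in each cell cannot be told apart.

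Because the table's annotation gives peaks closer to a gene's start to the promoter classes first, the smallest distance of an exonic peak to the start site of the nearest gene was 3001 bases. The median was 19002 bases for peaks in exon 1 and 11112 bases for peaks in later exons. Of the 1636 peaks in exon 1, 1628 (99.5%) lay in a transcript that has no gene identifier in the annotation, against 679 (19.5%) of the 3487 peaks in later exons. Among the 2808 later-exon peaks with an identified host, the host was the nearest gene for 2196 and another gene for 612. Gene symbols below are those of the nearest gene, and the host of the exon is named where it differs. A host without a gene identifier is called an unnamed transcript, and its peak is only nearest to the gene given. The peaks had 3792 nearest genes, of which 2883 had a single exonic peak and 41 had 5 or more, and 887 peaks lay in the only exon of their transcript.

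First-exon peaks were wider and slightly higher per length than later-exon peaks, and both were far lower than promoters. The median width was 688 bases in exon 1 and 593 bases in later exons, against 1071 bases for promoter peaks within 1 kb and 513 bases for intron peaks. The median level per kb of peak, averaged over all 6 libraries, was 80.9 in exon 1 and 71.4 in later exons, against 201 at promoters and 68.0 in introns. Median levels per kb in exon 1 were 74.5, 77.7 and 75.4 in BMDM 1, 2 and 3, against 70.9, 90.1 and 73.0 in MG 1, 2 and 3. In later exons they were 60.7, 66.1 and 72.0 in BMDM 1, 2 and 3, against 60.7, 81.2 and 66.8 in MG 1, 2 and 3. In both classes MG 2 was the highest library and the groups overlapped. Of all reads in peaks, exonic peaks took 3.46%, 3.66% and 3.95% in BMDM 1, 2 and 3, against 3.40%, 3.95% and 3.63% in MG 1, 2 and 3, so that the shares overlapped as well.

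**Figure D1:**
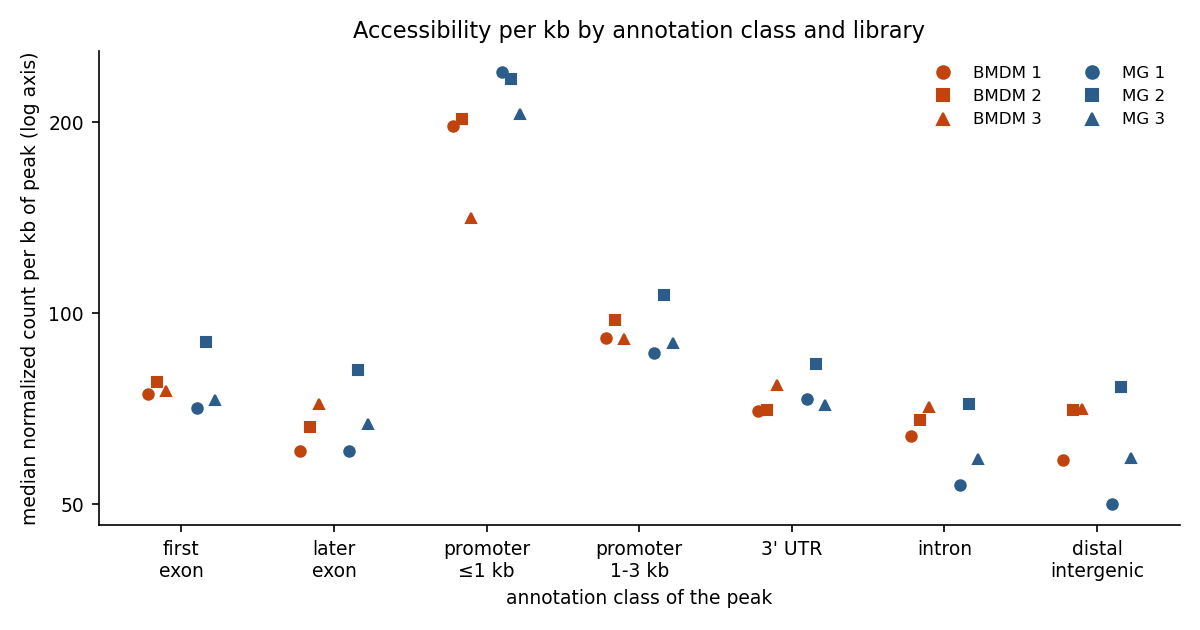
Median normalized count per kb of peak (y, log axis) for 7 annotation classes (x), with 1 point for each of the 3 BMDM (red) and 3 MG (blue) libraries. Exonic peaks sit between 60.7 and 90.1, near introns, and below promoter peaks within 1 kb in every library.

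Per its design text, the study set BMDM against MG to ask how metabolism relates to gene regulation in these cells. Of the 4871 exonic peaks with a mean normalized count of at least 10, 252 (5.17%) were higher in BMDM, against 5.33% of all 87944 peaks tested, and 71 (1.46%) were higher in MG, against 1.54% of all peaks (limma, Benjamini-Hochberg adjusted p under 0.05). Exonic peaks were therefore called about as often as peaks in general. The median log2 difference, BMDM minus MG, was -0.15 over exonic peaks and -0.14 over all peaks. With library totals in place of the authors' size factors the median over all peaks moved to 0.05, so differences of single peaks are given below relative to the median peak, while their p-values refer to the unshifted difference. No peak of the whole table was called without MG 3, without BMDM 1, without BMDM 2 or with precision weights (voom); the lowest adjusted p with voom was 0.05045 and 21048 of all peaks had an unadjusted p under 0.05. Without MG 1, limma called 593 exonic peaks in favour of BMDM and 706 in favour of MG. In the authors' deposited table, adjusted p was under 0.05 for 428 exonic peaks higher in BMDM (8.79%, against 9.41% of all peaks) and 311 higher in MG (6.38%, against 5.68%), and these held all 252 and 71 of the limma calls.

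A larger share of the MG calls than of the BMDM calls lay in first exons. In exon 1, 75 peaks (4.79%) were higher in BMDM and 37 (2.36%) in MG, and in later exons 177 (5.35%) were higher in BMDM and 34 (1.03%) in MG. For comparison, 2.12% of promoter peaks within 1 kb were higher in BMDM and 3.25% in MG, while in introns the shares were 6.78% and 0.892%. Among first exons, those followed by further exons had 4.01% of peaks higher in BMDM and 3.6% higher in MG, whereas peaks in the only exon of a transcript had 5.46% and 1.31%. Level moved with these shares: at mean counts of 30 to 100, 3.06% of first-exon and 0.935% of later-exon peaks were higher in MG, from 100 upward 3.64% and 2.92% were, and at 10 to 30 none were in either class (6 of 454 and 17 of 1125 at an unadjusted limma p under 0.05, and 0 and 3 in the authors' deposited table). The median difference of first-exon peaks exceeded that of later-exon peaks by 0.00 (log2), and by 0.10 without BMDM 3. Without MG 1 the shares higher in MG were 15% in first exons and 14.1% in later exons. These shares are descriptions, since peaks of 1 library are not replicates.

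**Figure D2:**
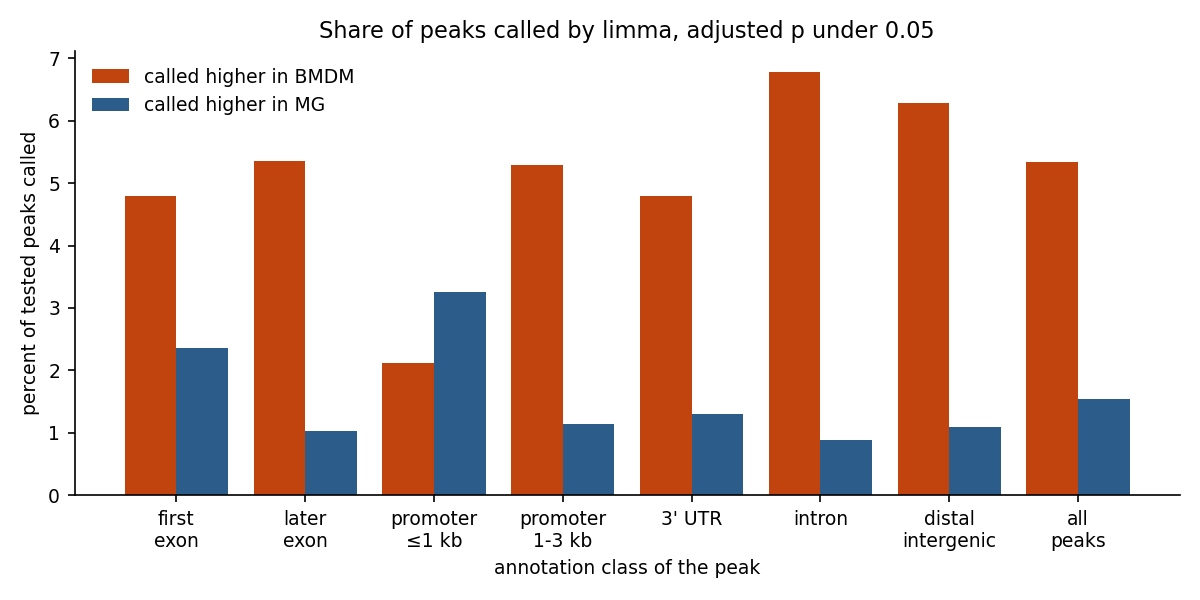
Percent of tested peaks (y) that limma called higher in BMDM (red) or higher in MG (blue) for 7 annotation classes and for all peaks (x). First exons, at 4.79% and 2.36%, lie between later exons and promoters within 1 kb in both directions.

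The naming rule leaves out symbols that end in Rik or start with Mir or with Gm and a digit. It takes only called peaks whose mean exceeds the median tested exonic peak, 47.2 counts, and whose groups do not overlap. Separate groups are therefore a condition for the peaks it names, not a result. Under this rule, the 8 exonic peaks with the largest increase in BMDM were nearest to Muc4, Mxd4, Uhrf2, Malt1, Pik3r6, Stx6, Specc1l and Cytip. Of these, 7 lay in later exons. The peak at chr16:32750428-32751175, in exon 2 of 2 of a transcript of Muc4, a membrane mucin, had 113, 145 and 88.8 normalized counts in BMDM 1, 2 and 3, against 6.35, 18.6 and 21.4 in MG 1, 2 and 3. MG 1 was the lowest library. Relative to the median peak the log2 difference was 3.09 ± 0.47 (SE; limma adjusted p = 0.0260). A peak at chr5:34196395-34196921 is nearest to Mxd4, which encodes a partner of MAX that represses transcription, but lies in exon 12 of 13 of Zfyve28. It had 149, 242 and 167 counts in BMDM 1, 2 and 3, against 11.1, 34.4 and 39.9 in MG 1, 2 and 3, and rose by 2.95 ± 0.47 (adjusted p = 0.0260).

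A peak at chr19:30113342-30113911, nearest to Uhrf2, which encodes a ubiquitin ligase that binds modified DNA, lies in exon 20 of 25 of Gldc, the glycine decarboxylase of the glycine cleavage system. It averaged 81.8 ± 25.9 counts over the BMDM libraries and 13 ± 9.84 over the MG libraries (SD, n = 3 each), which gave a difference of 2.92 ± 0.58 (SE; adjusted p = 0.0295). Malt1, a protease and scaffold of NF-kB signalling, had a peak in the only exon of an unnamed transcript with a mean of 137 ± 69.9 counts over BMDM and 20.8 ± 11.9 over MG, which is a difference of 2.90 ± 0.55 (adjusted p = 0.0281). In both, MG 1 was again the lowest library. Pik3r6, a regulatory subunit of the gamma form of phosphoinositide 3-kinase in leukocytes, had a peak in exon 18 of 20 (chr11:68545810-68546390) with 117, 144 and 96.0 counts in BMDM 1, 2 and 3, against 7.93, 24.1 and 24.3 in MG 1, 2 and 3. The peak rose by 2.87 ± 0.45 (adjusted p = 0.0260).

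Stx6, a SNARE protein of the trans-Golgi network, had a peak in exon 2 of 8 (chr1:155172926-155174036) with 105.1, 192 and 154 counts in BMDM 1, 2 and 3, against 17.5, 26.2 and 25.3 in MG 1, 2 and 3. The MG libraries lay close together, and the difference was 2.77 ± 0.35 (adjusted p = 0.0260). Specc1l, which encodes a protein that links actin and microtubules, rose by 2.76 ± 0.53 in exon 12 of 16 (adjusted p = 0.0287), with 168 ± 68.7 counts over BMDM and 29.9 ± 23.5 over MG. Cytip, a cytohesin-binding protein of blood cells that regulates adhesion, had a peak of only 261 bases in exon 7 of 8 with 102 ± 14 counts over BMDM and 17.4 ± 6.99 over MG, a difference of 2.68 ± 0.39 (adjusted p = 0.0260). Without MG 1 the log2 differences of these 8 peaks, before the shift to the median peak, ranged from 2.16 for Malt1 to 2.46 for Stx6. Among the symbols that the rule leaves out, and named here after their values were seen, Mirt1 (exon 10 of 10), Gm17746 and Gm6260 had called peaks with larger differences than Stx6, at 2.70, 2.68 and 2.67 on the same unshifted scale (adjusted p = 0.0283, 0.0260 and 0.0349). The condition on the mean also left out called peaks, some with larger unshifted differences than Muc4, at 2.953. Among them were peaks nearest to Khdc1a (3.465), Meg3 (3.37), D16Ertd472e (3.343), Myh9 (3.086) and Plcb1 (3.011). In the other direction it left out a peak nearest to Cdkn2aip, at -2.246, against -2.244 at St3gal3.

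In the other direction, the largest decreases in BMDM mostly lay in transcripts without a gene identifier. Such transcripts held 45% of all exonic peaks and 99.5% of those in exon 1. The peak nearest to Has2, which encodes a hyaluronan synthase, is the one that holds the Gm38516 window printed above. It covers chr15:56763930-56765642, in exon 1 of 3, and had 63.5, 20.1 and 47.1 normalized counts in BMDM 1, 2 and 3, against 99.96, 1148 and 612 in MG 1, 2 and 3. MG 1 lay near BMDM and far below MG 2 and 3. Against the median peak its log2 difference was -3.23 ± 0.78 (SE; limma adjusted p = 0.0366). The peak that holds the LOC105244755 window (chr5:64713918-64715249, exon 3 of 5), nearest to the repressor gene Klf3, had 15.9, 22.0 and 29.0 counts in BMDM 1, 2 and 3, against 47.6, 524 and 286 in MG 1, 2 and 3, a difference of -2.96 ± 0.73 (adjusted p = 0.0380). Both sizes moved when an MG library was left out: before the shift the difference at Has2 was -4.38 without MG 1 and -2.63 without MG 2, and at Klf3 it was -4.10 and -2.38.

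Dst, which encodes the giant cytolinker dystonin, had a peak in exon 39 of 103 (chr1:34188924-34190736) with 73.4, 25.9 and 77.9 counts in BMDM 1, 2 and 3, against 115, 1040 and 543 in MG 1, 2 and 3. It fell by 2.77 ± 0.72 (adjusted p = 0.0438). A peak in an unnamed transcript, nearest to Lclat1, which encodes an acyltransferase of cardiolipin and other phospholipids, fell by 2.58 ± 0.68. It had 24.5 ± 9.34 counts over BMDM and 224 ± 188 over MG (adjusted p = 0.0433). Another in an unnamed transcript, nearest to Wnk3, which encodes a kinase that regulates ion cotransporters, fell by 2.22 ± 0.45. It had 38.3 ± 4.92 counts over BMDM and 226 ± 126 over MG (adjusted p = 0.0268). A peak in exon 20 of 22 of the histone demethylase gene Kdm4a, nearest to the sialyltransferase gene St3gal3, fell by 2.11 ± 0.56 (36.6 ± 10.1 counts over BMDM, 217 ± 158 over MG; adjusted p = 0.0434). In each of these 4 peaks, and at Has2 and Klf3, MG 2 was the highest library and MG 1 the lowest of its group, the order that the sum over the neural and glial markers also had, and its part in the result was not tested. Before the shift the difference at Dst was -3.80 without MG 1 and -2.22 without MG 2, at Lclat1 -3.58 and -2.02, at Wnk3 -2.87 and -1.96, and at St3gal3 -2.93 and -1.68. With library totals the peaks at Has2, Klf3, Dst, Lclat1 and St3gal3 were no longer called (limma adjusted p = 0.0553 to 0.0835).

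The peak nearest to Nek7, which encodes a kinase needed for the NLRP3 inflammasome, lay in the only exon of an unnamed transcript. It had 39.7, 18.1 and 32.6 counts in BMDM 1, 2 and 3, against 69.0, 220 and 118 in MG 1, 2 and 3, and fell by 1.91 ± 0.47 (adjusted p = 0.0359). Snap25, which encodes a SNARE protein of synapses and is one of the neural markers, did not follow that order. Its peak, in the only exon of an unnamed transcript at chr2:136679726-136680245, had 31.7, 14.9 and 19.9 counts in BMDM 1, 2 and 3, against 102, 97.3 and 78.7 in MG 1, 2 and 3, a difference of -1.93 ± 0.37 (adjusted p = 0.0260). The 3 MG libraries were close together. Over the 71 peaks called higher in MG, MG 2 was the highest of its group 41 times, MG 1 29 times and MG 3 only 1 time. Over the 252 called higher in BMDM, BMDM 2 was the highest of its group 160 times and BMDM 3 the lowest 156 times. Before the shift the difference at Nek7 was -2.45 without MG 1 and -1.62 without MG 2, and at Snap25 it was -1.998 and -2.03.

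**Figure D3:**
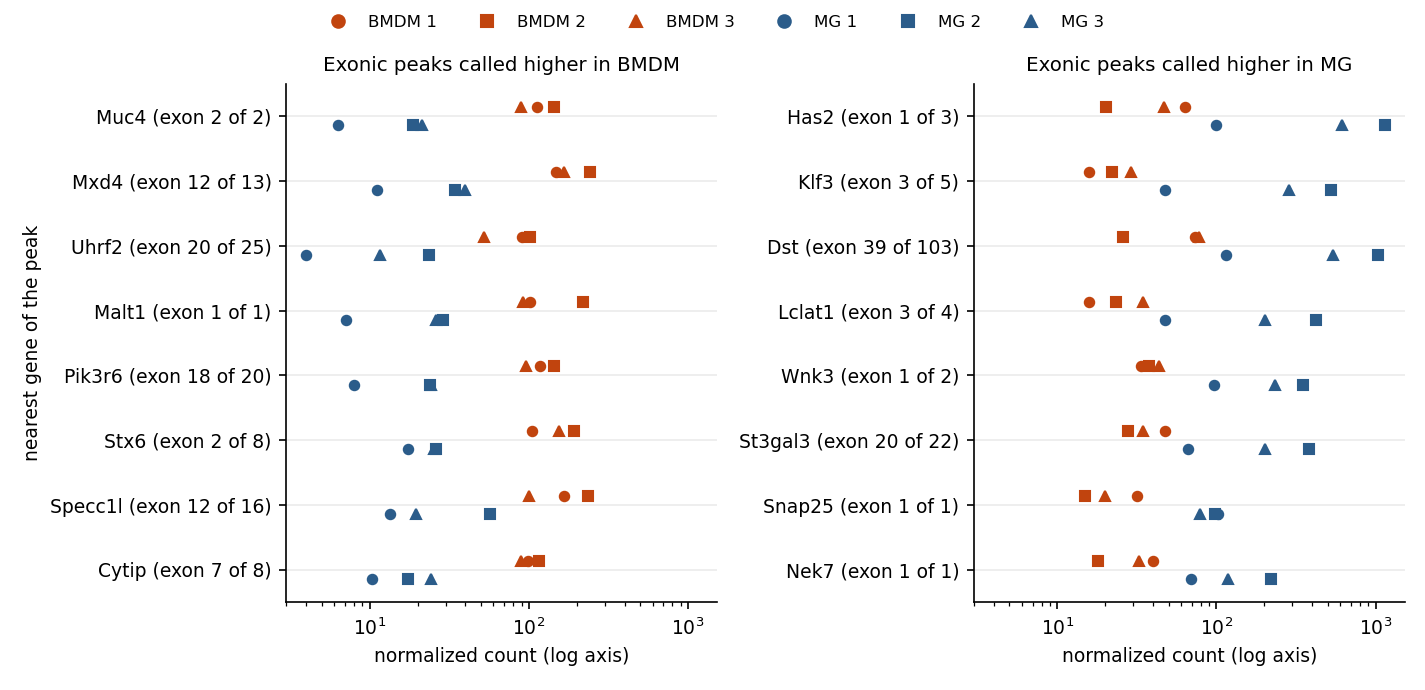
Normalized count (x, log axis) of the 8 exonic peaks with the largest increase (left) and decrease (right) in BMDM under the naming rule. Each of the 3 BMDM (red) and 3 MG (blue) libraries has 1 point. The rule leaves out Rik, Gm and Mir symbols, peaks with a mean not above the median tested exonic peak, and peaks whose groups overlap. For Has2, MG 1 at 99.96 lies far below MG 2 at 1148.

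For the first 4 genes in each direction the promoter peak of highest mean was taken, and only that of Dst was called. At Mxd4 and Uhrf2 this is not the promoter of the hosts, Zfyve28 and Gldc. At Malt1, Has2, Klf3 and Lclat1 the host is an unnamed transcript, so the promoter taken is only that of the nearest gene. Promoter peaks of Mxd4, Uhrf2, Malt1, Klf3 and Lclat1 differed by -0.26 to 0.24 (log2, before the shift), with adjusted p of 0.697 to 0.979. The promoter peak of Muc4 was low in both groups, with 8.25 ± 7.32 counts over BMDM and 21.2 ± 19.0 over MG (adjusted p = 0.549). The promoter peak of Dst had 224 ± 53.1 counts over BMDM and 724 ± 94.7 over MG. Before the shift it fell by 1.70 ± 0.31 (adjusted p = 0.0260). The promoter peak of Has2 had 20.9 ± 10.6 counts over BMDM and 246 ± 229 over MG (-2.88 ± 0.85 before the shift, adjusted p = 0.0679). Of the 252 exonic peaks higher in BMDM, 192 had a tested promoter peak at their nearest gene, and 8 of these promoters were higher in BMDM and 3 in MG. Of the 71 higher in MG, 60 had such a promoter, of which 7 were higher in MG and none was higher in BMDM (1 at an unadjusted limma p under 0.05, and none in the authors' deposited table). For all exonic peaks with such a promoter, 1.6% of promoters were higher in BMDM and 4.48% in MG. Among all tested peaks of a gene, the named one included, 2 of 5 at Muc4 and 1 of 4 at Mxd4 were higher in BMDM. So were 1 of 3 at Uhrf2 and 9 of 19 at Malt1, with none higher in MG at these 4. Higher in MG were 3 of 9 at Has2 and 6 of 43 at Dst, with none higher in BMDM. Klf3 had 1 of 23 in each direction, and Lclat1 had 3 of 18 higher in BMDM and 1 in MG. Over all peaks tested the shares were 5.33% and 1.54%.

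Exonic peaks at the start of RefSeq transcripts were found mostly in first exons. A promoter window overlapped 210 of the 1636 first-exon peaks (12.8%) and 46 of the 3487 later-exon peaks, against 55% of promoter peaks within 1 kb and 0.613% of intron peaks. The first-exon peaks on a window had a median level of 109 counts per kb. Of the 247 tested exonic peaks on a window, 13 were higher in BMDM and 9 in MG, which is 5.26% and 3.64%, against 1.5% and 3.61% of all tested peaks on a window and 5.33% and 1.54% of all peaks. The Gm36199 peak (chr17:29434385-29435850, exon 1 of 4), nearest to the kinase gene Pim1, had the highest mean count of the 13, with 778, 1072 and 428 counts in BMDM 1, 2 and 3, against 121, 303 and 185 in MG 1, 2 and 3. It rose by 2.03 ± 0.44 (adjusted p = 0.0361), and its groups did not overlap, as in all 22 called peaks on a window. The largest differences of the 13, at lower counts, were 2.66 at Gm51782, near Rab3ip, and 2.60 at Gm33728, near Hbs1l (adjusted p = 0.0322 and 0.0361).

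The Gm14636 peak (chrX:19237507-19238250, exon 1 of 3), nearest to the microRNA gene Mir222, had 79.4, 102 and 52.5 counts in BMDM 1, 2 and 3, against 23.0, 25.7 and 25.3 in MG 1, 2 and 3, and rose by 1.71 ± 0.36 (adjusted p = 0.0353). The 4833407H14Rik peak (chr19:53460353-53460927, exon 1 of 2), nearest to Mirt1, had 192, 150 and 88.8 counts in BMDM 1, 2 and 3, against 45.2, 42.1 and 65.1 in MG 1, 2 and 3, and rose by 1.57 ± 0.37 (adjusted p = 0.0472). Both lay higher in every BMDM library, which held for all 13 window peaks called higher in BMDM. The Gm26744 peak (chr16:21845589-21846604, exon 1 of 2), nearest to the kinase gene Map3k13, had 27.8, 31.7 and 45.3 counts in BMDM 1, 2 and 3, against 95.2, 174 and 133 in MG 1, 2 and 3, and fell by 1.76 ± 0.35 (adjusted p = 0.0263). Also lower in BMDM, by 1.53 and 1.51, were the peaks of Gm14902, near the glycerophosphodiesterase gene Gdpd2, and Gm26868, near Lingo1, which encodes an inhibitor of myelination (adjusted p = 0.0424 and 0.0489). Among the increases, Gm29946 near Mir3970 rose by 2.34 and Gm27572 near the cAMP phosphodiesterase gene Pde4d by 1.99 (adjusted p = 0.0264 and 0.0296).

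**Figure D4:**
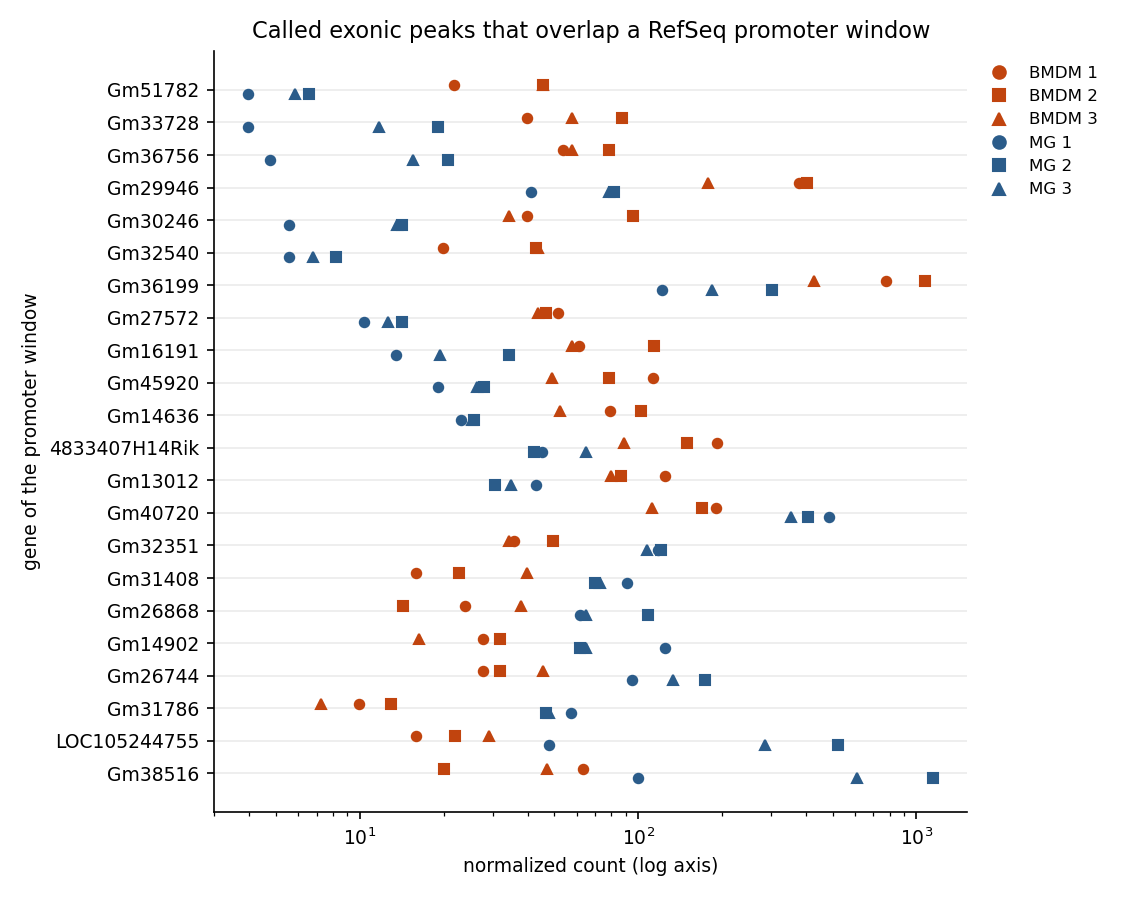
Normalized count (x, log axis) of the 22 called exonic peaks that overlap a RefSeq promoter window, named by the gene of the window (y), with 1 point for each of the 3 BMDM (red) and 3 MG (blue) libraries. The 13 upper peaks are higher in BMDM and the 9 lower ones in MG, with MG 1 near BMDM for Gm38516 and LOC105244755.

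Syne1, which encodes a giant nuclear envelope protein, had 11 exonic peaks, 10 of them tested and none called by limma (before adjustment, 1 had a p under 0.05 and was lower in BMDM, and 2 were called so in the authors' deposited table). Its peak in exon 55 of 146 (chr10:5287420-5289907) had 53.6, 34.3 and 87.0 counts in BMDM 1, 2 and 3, against 47.6, 777 and 336 in MG 1, 2 and 3, so that MG 1 lay within BMDM (adjusted p = 0.154). Without MG 1 limma called 5 of the Syne1 peaks, with unshifted differences of -3.21 in exon 55, -3.30 in exon 143, -2.20 in exon 38, -1.24 in exon 1 and 2.02 in exon 93 (adjusted p = 1.90e-12, 1.32e-11, 4.48e-06, 0.0198 and 0.00135). That fit had 2 MG libraries and 413.6 prior degrees of freedom, against 6.08 with all libraries. Its p-values thus rest almost wholly on a variance pooled over peaks, not on the spread at Syne1. In exon 55 the difference was -2.08 with all 6 libraries and -1.21 without MG 2, and in exon 143 it was -2.001 and -1.03. Lrp1, an endocytic receptor of macrophages, had 10 exonic peaks, none called by limma, below an unadjusted p of 0.05 or called in the authors' deposited table (with loess normalization 2 were called), and the highest, in exon 6 of 89 (chr10:127603596-127605480), had 1041 ± 475 counts over BMDM and 734 ± 323 over MG. Tex14 was the nearest gene of 7 exonic peaks, most of them in unnamed transcripts, and the same 3 counts were 0.

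Rreb1, a zinc finger transcription factor that acts downstream of Ras, was the nearest gene of 9 exonic peaks, most of them in unnamed transcripts. Of these, 1 was higher in BMDM (chr13:37622322-37622930, exon 3 of 4 of an unnamed transcript, at -155470 bases from the Rreb1 start site). This peak had 129, 172 and 90.6 counts in BMDM 1, 2 and 3, against 40.5, 48.1 and 36.9 in MG 1, 2 and 3, and rose by 1.71 ± 0.34 (adjusted p = 0.0319). Ly86, which encodes MD-1, a partner of the receptor RP105 in toll-like receptor signalling, was the nearest gene of 7 exonic peaks. All 7 lay in unnamed transcripts, 106247 to 197377 bases from the Ly86 start site. The farthest of them rose by 1.79 ± 0.31 (chr13:37542585-37543158, adjusted p = 0.0263). It had 99.2, 135 and 107 counts in BMDM 1, 2 and 3, against 33.3, 32.3 and 39.9 in MG 1, 2 and 3. A neighbouring Ly86 peak at chr13:37541201-37542297 had 391, 423 and 212 counts in BMDM 1, 2 and 3, against 420, 261 and 331 in MG 1, 2 and 3, with overlapping groups.

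Of the 346 peaks nearest to 30 microglial identity genes 11 were exonic (3.18%), against 5.52% over all peaks, and limma called none of the 10 that were tested, although 5 had lower values in BMDM with p under 0.05 before adjustment and 1 was called so in the authors' deposited table, with a median difference of -0.84 and a range of -1.35 to 0.39, against -0.14 over all peaks. Of the 229 peaks nearest to 33 monocyte and macrophage identity genes 11 were exonic too. Of the 10 tested, 2 were called higher in BMDM, with a median of 1.08 and a range of -0.93 to 3.62. Before adjustment 6 of the 10 were higher in BMDM with a limma p under 0.05, and 0 were lower. The authors' deposited table called 4 higher and 0 lower. Over all peaks tested, 5.33% were higher in BMDM and 1.54% in MG, and lists this short are given as counts alone. A peak in exon 4 of 6 of an unnamed transcript near Ahr, the aryl hydrocarbon receptor (chr12:35578697-35579700), had 308, 232 and 118 counts in BMDM 1, 2 and 3, against 68.2, 53.0 and 52.5 in MG 1, 2 and 3, and rose by 1.94 ± 0.39 (adjusted p = 0.0315). A peak nearest to Ms4a8a, in exon 6 of 7 of Ms4a20, rose by 2.06 ± 0.50 with 39.8 ± 13.2 counts over BMDM and 9.97 ± 4.11 over MG (adjusted p = 0.0473).

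Of 17 tested peaks near myeloid transcription factors 1 (5.88%, against 5.33% of all peaks) was higher in BMDM. It lay in an unnamed transcript nearest to Egr2, which encodes an early growth response factor of macrophages. Its counts were 37.7, 102 and 63.4 in BMDM 1, 2 and 3, against 7.14, 17.5 and 18.5 in MG 1, 2 and 3 (2.28 ± 0.50, adjusted p = 0.0376). Of 5 peaks near immunosuppressive mediators 1 was higher in BMDM, in exon 4 of 7 of Cd274, which encodes the checkpoint ligand PD-L1 (chr19:29380281-29380864). It had 393, 215 and 125 counts in BMDM 1, 2 and 3, against 46.0, 75.4 and 53.5 in MG 1, 2 and 3, and rose by 2.06 ± 0.43 (adjusted p = 0.0337). All BMDM libraries lay above all MG libraries in both, and the groups were separate in every other named peak that was called. Limma called none of 6 peaks of glycolysis and lactate genes, 13 of lysine acyltransferases and deacylases, 2 of neutrophil markers, 8 of T, NK and B cell markers and 6 of endothelial and stromal markers. At an unadjusted p under 0.05, counts higher and lower in BMDM were 0 and 1 for glycolysis, 2 and 1 for acyltransferases and deacylases, 0 and 0 for neutrophil, 0 and 1 for lymphoid, and 1 and 1 for endothelial and stromal markers. The authors' deposited table called 1 and 1 of the acyltransferase and deacylase peaks, 0 and 1 of the endothelial and stromal peaks and none of the others. Their median differences were -0.36, -0.48, -0.24, -0.25 and 0.11. The strongest peak of the glycolysis list, near hexokinase 2 (Hk2), had 458 ± 218 counts over BMDM and 658 ± 351 over MG (adjusted p = 0.549).

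Of 11 tested peaks of neural and glial markers 1 was called, the Snap25 peak described above, with a median of -0.28 over the list. Of 2 tested peaks of clustered protocadherins, adhesion proteins of neurons, 1 fell, in an unnamed transcript nearest to Pcdhga1. It had 63.5, 46.6 and 48.9 counts in BMDM 1, 2 and 3, against 144, 143 and 138 in MG 1, 2 and 3 (-1.28 ± 0.29, adjusted p = 0.0299). Among 91 tested peaks near zinc finger protein genes, 3 were higher in BMDM (Zfp51, Zscan10 and Zfp386) and 1 in MG (Zfp644), which is 3.3% and 1.1%, against 5.33% and 1.54% of all peaks. The median over this list was -0.30, and before adjustment 7 of its peaks were higher and 14 lower in BMDM with a limma p under 0.05. Zfp51 rose by 2.78 ± 0.52 in its exon 5 of 5, with 31.7, 81.6 and 56.2 counts in BMDM 1, 2 and 3, against 5.55, 13.1 and 5.83 in MG 1, 2 and 3 (adjusted p = 0.0282). Of 31 tested peaks of collagen and laminin genes, which encode extracellular matrix, 2 (6.45%) were higher in BMDM: Col15a1 in exon 38 of 39 (1.68 ± 0.38, adjusted p = 0.0413) and Lamb3 in exon 15 of 27 (2.30 ± 0.50, adjusted p = 0.0359). Limma called none of 7 tested peaks of histone genes and 2 of Hox genes, with 2 and 0 below a p of 0.05 before adjustment, all lower in BMDM, and 1 and 0 called lower in the authors' deposited table.

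None of the 10 most open exonic peaks was called by limma at the deposited normalization, had an unadjusted p under 0.05 or was called in the authors' deposited table. In first exons the highest means belonged to Zfp958, Dusp1, Foxj2, Sirt4 and Spen, and all 5 lay in transcripts without a gene identifier. The peak near Dusp1, a phosphatase of MAP kinases (chr17:26501699-26504140), had 4354, 2261 and 1426 counts in BMDM 1, 2 and 3, against 4467, 1199 and 2073 in MG 1, 2 and 3. In later exons the highest were Nanos3, Fosb, Lrp1, Setd1b and Letmd1. The peak near Fosb, a subunit of AP-1, had 1270, 865 and 558 counts in BMDM 1, 2 and 3, against 1537, 749 and 852 in MG 1, 2 and 3. All 10 had overlapping groups, with differences of -0.43 to 0.48 (log2, before the shift) and adjusted p of 0.506 to 0.984. With loess normalization 2 of the 10 were called, Zfp958 at 0.42 and Lrp1 in exon 6 at 0.74 (adjusted p = 0.00979 and 0.0261). Over all tested exonic peaks, 795 (16.3%) had every BMDM library above every MG library, against 17.0% of all peaks, and 655 (13.4%) had the reverse, against 12.9%.

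The authors' peak lists, called per library, held more exonic peaks in MG than in BMDM, and the lists differed in length. They overlapped 31.3%, 50.9% and 12.3% of the exonic peaks in BMDM 1, 2 and 3, against 52.5%, 74.9% and 56.0% in MG 1, 2 and 3, with lists of 17741 peaks (BMDM 3) to 70739 peaks (MG 2). The shares over all peaks were close to these, with 34.7%, 54.5% and 17.9% in BMDM 1, 2 and 3. In MG 1, 2 and 3 they were 51.7%, 73.7% and 53.8%. First exons were listed more often than later ones in every library, with 19.1% against 9.15% in BMDM 3 at the low end and 77.9% against 73.5% in MG 2 at the high end. All 6 lists held 578 exonic peaks (11.3%, against 16.8% of all peaks), with 17.7% of first-exon and 8.26% of later-exon peaks. In no list were 441 exonic peaks (8.61%, against 8.64% of all peaks). The lists of all 3 BMDM libraries and no MG library shared 6 exonic peaks (0.117%, against 0.0883% of all peaks). Those of all 3 MG libraries and no BMDM library shared 334 (6.52%, against 5.08% of all peaks). BMDM 2, with 19727511 reads in peaks and 52631 listed peaks, overlapped fewer exonic peaks than MG 1, with 19244734 reads and 50217 listed peaks, and MG 3, with 12531808 reads and 52566 listed peaks. The part of depth in these overlaps was not tested.

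**Figure D5:**
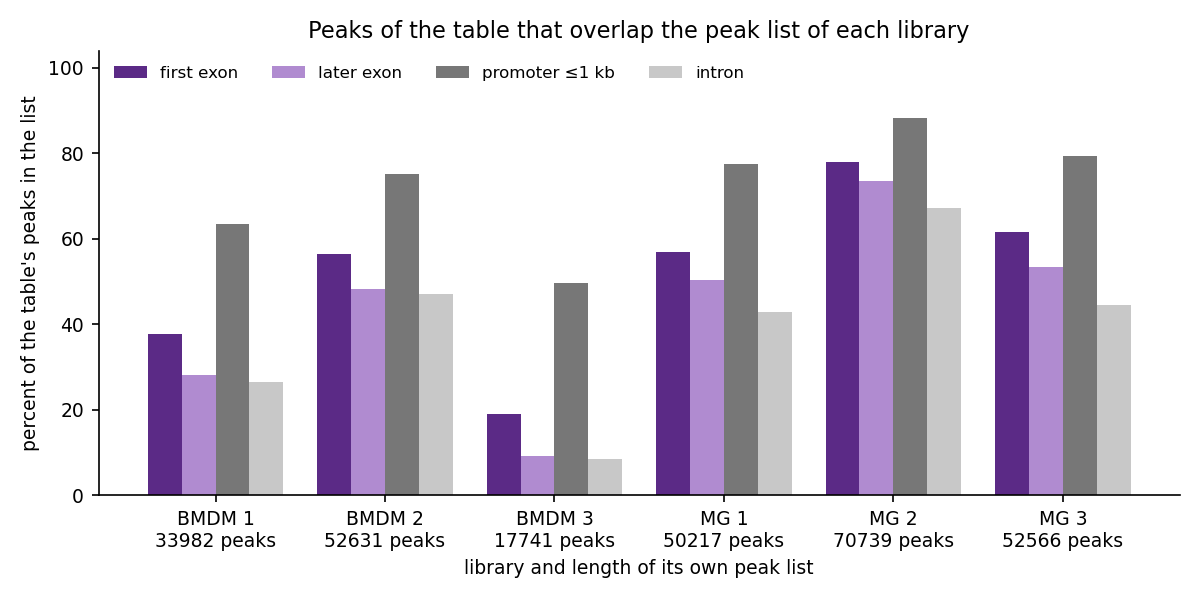
Percent of the table's peaks (y) that overlap the authors' peak list of each library (x, with the list's length) for first exons, later exons, promoters within 1 kb and introns. First exons are listed more often than later exons in all 6 libraries, and BMDM 3, with the shortest list, holds 12.3% of exonic peaks, against 17.9% of all peaks.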

How the data were processed

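ATAC-seq libraries of 3 BMDM and 3 MG samples were used, grouped and numbered by their labels. Per the submitters' processing notes the authors worked on mm10 with Bowtie2 2.4.1 after cutadapt 1.8.1, with MACS2 2.1.1.20160309, with DESeq2 1.36.0 and with ChIPseeker 1.32.1; no settings were given in these sources. The deposited table holds log2 values, variance-stabilized by the authors, for each library, and, per the file headers, a log2 fold change, a mean normalized signal, a p-value and an adjusted p-value. The deposited peak lists give each peak's fold enrichment over local background (a ratio), a −log10 p and a −log10 q, used only to describe lists. A further 8 per-sample columns could be matched to no sample and stayed unused.

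The table's 93084 lines hold 155 repeats and 65 peaks without annotation, which left 92864 peaks. Inverting the stabilizing transformation gave normalized counts that matched the deposited mean within 2.37e-06 of its value and, times the size factors, whole reads (within 0.02) in 100% of peaks. Peaks with a mean of at least 10 were tested with limma 3.58.1 (R 4.3.3, trend) on log2(normalized count + 1), a scale that understates the change of low peaks, with Benjamini-Hochberg adjustment over all 87944. A normalized count of 1.64 (MG 2) to 5.95 (BMDM 1) equals 3 reads, which covers counting error alone; reads copied by PCR are not separate molecules.

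Peaks were named by rule: the 8 called peaks with the largest difference in each direction whose mean exceeds the median exonic peak and whose groups do not overlap, 1 per gene; the 5 highest in first and in later exons; the 5 genes with most exonic peaks; and the called or highest peak of each gene list, without symbols that end in Rik or start with Mir or with Gm and a digit. Peaks on promoter windows were added after values were seen. The members and lists were chosen with earlier results of these data known. The test was tried on simulated data with the same spread for all peaks. It called 4% of 100 peaks changed 2-fold, 57% of 100 changed 4-fold, and 3 unchanged peaks. A peak that was not called is therefore not shown to be unchanged. Windows came from RefSeq (GRCm38.p6).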

Additional observations from a re-analysis of the deposited data

How the results depend on the processing

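The number of exonic peaks called depended strongly on single libraries. Leaving out each library in turn gave 0 to 593 exonic peaks higher in BMDM and 0 to 706 higher in MG: 593 and 706 without MG 1, 428 and 170 without MG 2, 125 and 19 without BMDM 3, and 0 and 0 without MG 3, BMDM 1 or BMDM 2, where 14446, 15785 and 14612 of all peaks still had an unadjusted p under 0.05. The prior degrees of freedom were 413.6 without MG 1, against 6.08 with all libraries; the cause of these changes was not tested. With library totals the counts were 379 and 41, with loess 368 and 108, and with voom 0 and 0. The replicate block gave 489 and 326, but same-numbered libraries deviated together by r = 0.435, -0.0616 and 0.36, so that the numbers were not taken as a pairing. Pseudocounts, other filters and robust moderation kept both counts within 1.5 times. The median exonic difference moved to 0.0398 with library totals. Leaving out libraries, it ranged from -0.1689 to -0.0827, first minus later exons from -0.0642 to 0.1043, and the share of reads (BMDM minus MG, percentage points) from -0.1009 to 0.1755. None of the 49 named called peaks changed direction in any setting run. Their groups did not overlap, so leaving out a library or changing the pseudocount, filter, block or moderation could not reverse their direction. Their constant direction is therefore no measure of stability. Of 59 named uncalled peaks, most with overlapping groups, 20 had values of both signs and 10 were called in some other setting. All 49 lost their call with voom and without MG 3, BMDM 1 or BMDM 2, 28 did without BMDM 3, 10 with library totals and 5 with robust moderation. Low reads in BMDM 1 and 3 limit the precision of peaks near the floor.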
